A study of Mus musculus with 4 samples.

Results

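A set of 10 genes of the interleukin-6 family was followed across 4 single-cell RNA libraries of mouse testis: the ligands Il6, Lif and Il11, the receptor subunits Il6st, Il6ra, Il11ra1, Lifr and Osmr, the transcription factor Stat3 and its feedback inhibitor Socs3. They were taken by symbol, and 10 of 10 were found among the 31017 symbols of the gene lists. The set was chosen by the levels of these genes in the same libraries (Il11 in germ cells in vivo, Il6 and Lif in culture, the receptors in other cells), so their differences are given as descriptions. Each library came from testes of C57BL/6 mice with the Acr-Gfp transgene, in which the promoter of Acr, a gene of later germ cells, drives green fluorescent protein, and every group carried it. In the culture groups, testes removed at 7 days postpartum (dpp) were freed of their capsule, cut into fragments and kept for 2 days or for 7 days beneath a ceiling of PDMS, a silicone, with agarose below them and α-MEM plus AlbuMAX as medium. The other groups were testes taken at 9 dpp and at 14 dpp and not cultured, so the 2-day culture matched 9 dpp in total age, and the 7-day culture matched 14 dpp. How many mice went into each library is not given in the sources used here.

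Cytokines of this family bind a receptor chain of their own and then the shared signal-transducing chain gp130, which is encoded by Il6st. Receptor-bound Janus kinases then phosphorylate STAT3, which enters the nucleus and switches on genes that include Socs3, whose product blocks the receptor and kinase. IL-6 signals through Il6ra, IL-11 through Il11ra1, LIF through Lifr, and oncostatin M through Osmr or Lifr. In many tissues IL-6 and STAT3 drive the acute phase response to injury, and LIF is known as a factor that acts on germ cells and stem cells.

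The cell filter and the removal of doublet calls kept 6877 cells of the 2-day culture, 5150 of 9 dpp, 4816 of the 7-day culture and 6195 of 14 dpp, with 32081435 to 57585867 counts per library of unique molecular identifiers (UMIs, tags that count RNA molecules). The 2-day culture was the shallowest, at a median of 3607 UMIs a cell against 5577.5 to 8544.5 in the others. Each group had 1 library, so nothing here has a replicate check, no test between groups was run, and culture cannot be told apart from the library. All intervals are exact 95% intervals that cover counting error only. The limit given beside a 0 is instead 3 counts of the total, and it limits the cells with a UMI and not the cells that express the gene. A level is given in CPM, the UMIs of a gene per 1000000 UMIs of the library or class. Cells were put into classes by the UMIs of fixed marker genes, which do not include the 10 genes, and the classes are called germ-like, Sertoli-like, stromal or myoid-like and so on for that reason. Germ-like cells had a median of 66.7% of the germ cell markers and Sertoli-like cells 81.8% of the Sertoli markers. Between 35 and 86 cell barcodes were shared by each pair of libraries. In a clustering of all cells, mostly different clusters held a class in culture and in vivo: for the stromal or myoid-like cells these were clusters 1 and 8 after 2 days in culture, 1 and 14 after 7 days in culture, and 4 and 10 in both testis libraries, and for the Sertoli-like cells clusters 9 and 17, 9, 13 and 11 in the order 2-day culture, 7-day culture, 9 dpp and 14 dpp. Among the Sertoli-like cells of the 2-day culture, 457 of 1195 lay in cluster 17, whose cells of that library had a median of 1187 UMIs, so the Sertoli-like Socs3, Stat3, Osmr, Lifr and Lif values of that library are also given without it.

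The sequence before the start site is shown for the ligands with opposite patterns, Il6 and Il11, and for Socs3, the gene of the set that STAT3 itself is known to switch on. The letters are RefSeq's on GRCm38.p6, 5′ to 3′ on the gene's strand, and end at the base before the start site. Capitals mark matches, on either strand, to the STAT motif TTCNNNGAA, the AP-1 motif TGANTCA or the NF-kB motif GGGANNNNCC. Il6 lies on the plus strand of chromosome 5, and its window is chr5:30012864-30013113. Il11 lies on the minus strand of chromosome 7 and has a pair of annotated starts, with windows chr7:4778142-4778391 and chr7:4782858-4783107. Socs3 lies on the minus strand of chromosome 11, with the window chr11:117969367-117969616. The start sites are RefSeq's. By the GENCODE gene spans given further on, the Socs3 window and the first Il11 window lie inside the gene, and the second Il11 window begins at its edge, so for these the start differs between the annotations or is one of several.
Il6: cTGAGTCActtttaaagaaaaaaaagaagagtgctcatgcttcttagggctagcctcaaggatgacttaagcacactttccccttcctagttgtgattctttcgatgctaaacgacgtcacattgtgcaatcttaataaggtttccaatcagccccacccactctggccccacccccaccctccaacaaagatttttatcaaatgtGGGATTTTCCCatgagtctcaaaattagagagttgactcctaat
Il11, first window: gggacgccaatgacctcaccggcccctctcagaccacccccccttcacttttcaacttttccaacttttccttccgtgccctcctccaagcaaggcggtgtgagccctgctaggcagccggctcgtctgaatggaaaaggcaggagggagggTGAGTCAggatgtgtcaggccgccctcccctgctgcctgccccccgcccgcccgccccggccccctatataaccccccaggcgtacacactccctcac
Il11, second window: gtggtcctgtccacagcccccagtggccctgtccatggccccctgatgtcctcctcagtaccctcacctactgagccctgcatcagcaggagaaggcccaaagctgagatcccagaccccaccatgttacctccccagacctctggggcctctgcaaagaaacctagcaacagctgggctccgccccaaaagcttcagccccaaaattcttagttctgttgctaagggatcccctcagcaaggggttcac
Socs3: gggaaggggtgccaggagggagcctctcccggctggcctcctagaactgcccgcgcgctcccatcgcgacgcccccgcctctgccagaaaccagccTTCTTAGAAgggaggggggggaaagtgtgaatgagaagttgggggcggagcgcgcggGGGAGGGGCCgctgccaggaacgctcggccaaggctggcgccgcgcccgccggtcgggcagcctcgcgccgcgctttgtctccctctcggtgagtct
Socs3 had 1 STAT match, which began 154 bases before its start, and 1 NF-kB match at 97 bases. The Il6 window held an AP-1 match 249 bases before the start and a pair of NF-kB matches that overlap, at 44 and 43 bases. The first Il11 window had an AP-1 match 98 bases before the start, and none of the 3 motifs was found in the second. Over all 32851 RefSeq windows, which also hold the first 50 bases of the transcript, 8.30% had the STAT motif, 7.81% the AP-1 motif and 20.7% the NF-kB motif, so these matches are a description of the letters and not of binding.

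Il11, a ligand best known from bone marrow and uterus, was the gene of the set with the most UMIs in both uncultured testes, and germ-like cells held nearly all of them. The 2-day culture had 252 Il11 UMIs (7.86 CPM), 9 dpp had 9012 (156 CPM), the 7-day culture had 373 (10.0 CPM) and 14 dpp had 4429 (78.8 CPM). Both cultures were thus far below both testis libraries, with no overlap of the counting intervals. Its gene spans chr7:4772373-4782859 on GRCm38. Il11 was 19.9-fold lower (17.6 to 22.7) after 2 days in culture than at 9 dpp and 7.84-fold lower (7.05 to 8.74) after 7 days in culture than at 14 dpp. Germ-like cells gave 96.1% of the Il11 UMIs at 9 dpp (95.7 to 96.5) and 95.7% at 14 dpp (95.1 to 96.3), while they held 52.5% and 58.8% of all UMIs. In the cultures the share was 82.1% at 2 days (76.8 to 86.7) and 94.1% at 7 days (91.2 to 96.3).

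**Figure D1:**
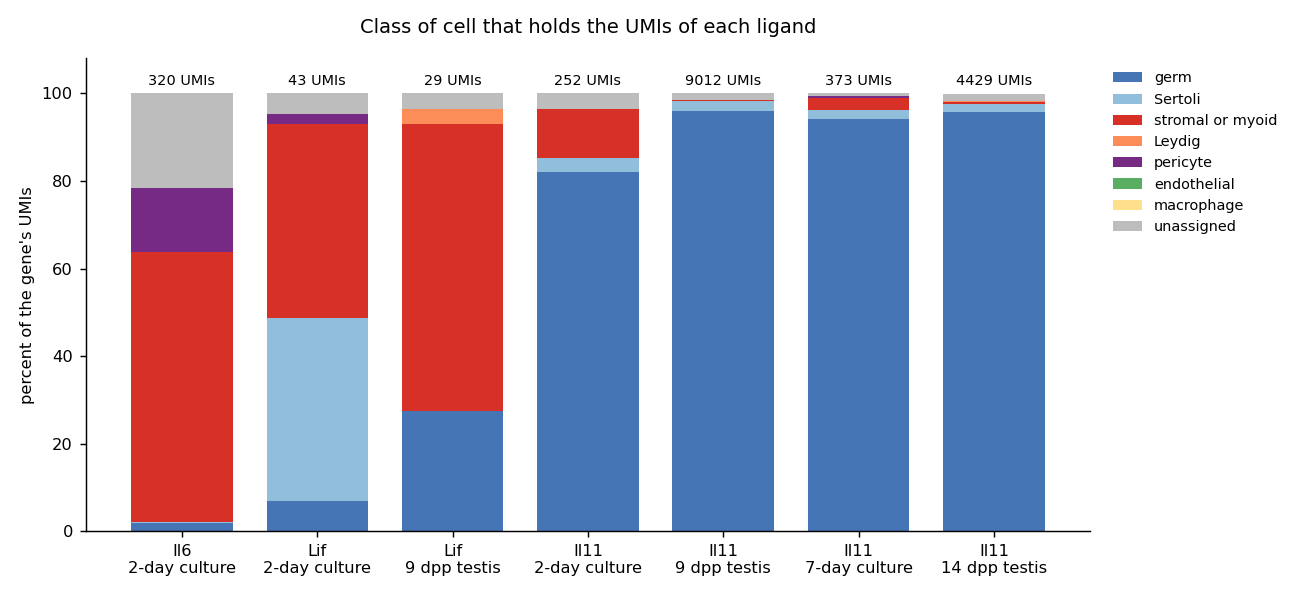
Each bar splits the UMIs of a ligand in one library by class of cell, as a percent of that gene's UMIs, with the number of UMIs above the bar; classes come from marker UMIs, and the libraries with fewest UMIs of Il6 and Lif are not drawn. Il6 after 2 days in culture lay mainly in stromal or myoid-like cells (61.6%), and Il11 lay mainly in germ-like cells in all 4 libraries.

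Within the germ-like cells the same order was seen, with 17.4 CPM after 2 days in culture, 286 at 9 dpp, 17.1 after 7 days in culture and 128 at 14 dpp. That is 16.4-fold lower (14.3 to 19.0) and 7.49-fold lower (6.71 to 8.37) in culture. At 9 dpp 1410 of 2509 germ-like cells had an Il11 UMI and the highest had 76, while after 2 days in culture 184 of 2756 had one and the highest had 3. By stage, cells scored as differentiating spermatogonia, which carry Kit and are dividing toward meiosis, had the highest Il11 level in all 4 libraries among stages of at least 50 cells: 351 CPM at 9 dpp (343 to 359), 202 at 14 dpp (195 to 209) and 30.9 after 7 days in culture (26.9 to 35.4), where the interval of the preleptotene cells (9.89 to 31.8) overlapped. After 2 days in culture they had 22.8 CPM (19.1 to 27.1), above the 12.8 of leptotene and zygotene cells (9.74 to 16.4), while the 10.5 CPM of 138 preleptotene cells had an interval (3.39 to 24.4) that overlapped it. At 9 dpp the preleptotene cells followed with 244 CPM (203 to 291), and the undifferentiated spermatogonia (160 CPM, 144 to 177) and the leptotene and zygotene cells (164 CPM, 154 to 174) did not differ beyond counting error. At 14 dpp the undifferentiated spermatogonia had 81.6 CPM (68.0 to 97.2), the preleptotene cells 67.6 (49.8 to 89.6) and the leptotene and zygotene cells 58.8 (54.6 to 63.3). The 74 pachytene cells of 14 dpp, which are in mid meiosis, had 11.4 CPM (6.75 to 18.0), below every earlier stage of that library.

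**Figure D2:**
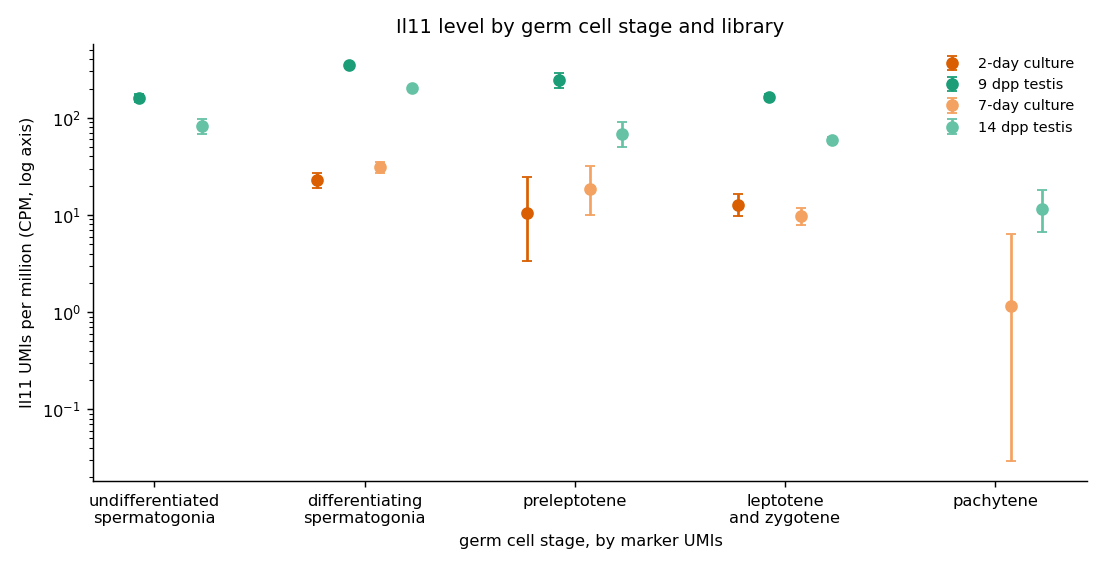
Points give the Il11 level in CPM, on a log axis, for each germ cell stage with at least 50 cells in a library, and bars are exact 95% Poisson intervals. In each stage shown for both members of a pair, the culture lay below the testis of the same total age.

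The gap between culture and testis was present within stages. Germ cell clusters were partly apart too: cluster 12 held 474 and 473 cells of 9 and 14 dpp but 8 of each culture. Cluster 6 held 1118 and 175 cells of the 2-day and 7-day cultures but 73 and 30 of 9 and 14 dpp. Others, such as cluster 2, held many cells of every library. Whether a stage holds like cells in culture and testis was not tested. In differentiating spermatogonia Il11 was 15.4-fold lower (12.9 to 18.4) for the 2-day pair and 6.53-fold lower (5.68 to 7.55) for the 7-day pair. Leptotene and zygotene cells were 12.8-fold lower (9.90 to 16.9) and 6.07-fold lower (4.94 to 7.51) in the same order. In preleptotene cells the log2 ratio of CPM + 1 was -4.42 and -1.81, against -3.88 and -2.67 in differentiating spermatogonia. The 7-day difference was thus smaller in preleptotene cells. With time in vivo, Il11 was 1.74-fold lower (1.67 to 1.81) at 14 dpp than at 9 dpp in differentiating spermatogonia and 2.79-fold lower (2.53 to 3.06) in leptotene and zygotene cells. Between the cultures the 7-day value was 1.35 times the 2-day value (1.08 to 1.69) in differentiating spermatogonia. In leptotene and zygotene cells it was 1.32-fold lower (0.942 to 1.82), at 9.70 against 12.8 CPM, which is not apart beyond counting error. After thinning each cell to 2000 UMIs, 34.4% of differentiating spermatogonia had an Il11 UMI at 9 dpp (31.8 to 37.0), 22.5% at 14 dpp (20.3 to 24.9), 4.26% after 2 days in culture (3.06 to 5.75) and 4.33% after 7 days in culture (2.92 to 6.17); the unthinned shares were 69.9%, 51.0%, 11.6% and 18.4%. Sertoli-like cells, thinned alike, gave 1.76%, 1.15%, 0.402% and 0.191%. The thinning left out 3, 3, 47 and 9 shallower spermatogonia.

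Il6 (chr5:30013114-30019981 on GRCm38), the ligand that gives the family its name, had 320 UMIs after 2 days in culture (9.97 CPM, 8.91 to 11.1), 0 at 9 dpp, 7 after 7 days in culture (0.189 CPM) and 1 at 14 dpp. Nearly all of its UMIs came from the 2-day culture, where it was at least 191-fold higher than at 9 dpp when the 0 is set to a floor of 3 UMIs per library, and 52.9-fold higher (25.4 to 133) than after 7 days in culture. Only 115 of 6877 cells of the 2-day culture had an Il6 UMI. Stromal or myoid-like cells held 197 of the UMIs in 87 cells, which is 61.6% (56.0 to 66.9) against their 34.3% of all UMIs. Pericyte-like cells, the contractile cells around small vessels, held 47 UMIs in 7 of 26 cells, and 3 of those cells held 42 of them. That is 14.7% of the Il6 UMIs (10.996 to 19.0) against 0.285% of all UMIs, or 514 CPM (378 to 683) against 17.9 in stromal or myoid-like cells, and it rests on few cells. Cells with no class held 69 UMIs in 14 cells, of which 1 cell held 30. Macrophage-like cells, a known source of IL-6 in other tissues, had no Il6 UMI, but they were only 10 to 46 cells per library.

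Among the stromal or myoid-like cells, Il6 reached 17.9 CPM (15.5 to 20.6) after 2 days in culture and 0.696 (0.226 to 1.62) after 7 days in culture, and no UMI was seen at 9 or 14 dpp. It was not limited to one side of that class, with 17.04 CPM in stromal-like cells (14.6 to 19.8) and 30.1 in 227 myoid-like cells (18.8 to 45.5), where 6 cells carried all 22 UMIs. At 2000 UMIs a cell, 1.87% of stromal or myoid-like cells had an Il6 UMI after 2 days in culture (1.35 to 2.52), 0.140% after 7 days in culture and none at 9 dpp, where 0 of 1492 cells allows a share of up to 0.201% by the limit of 3 counts. The unthinned share after 2 days in culture was 3.44%. Germ-like and Sertoli-like cells of the 2-day culture had none after thinning (0 of 2338 and 0 of 746 cells).

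Lif (chr11:4257557-4272514), a ligand of Lifr, differed less. It had 43 UMIs after 2 days in culture (1.34 CPM, 0.970 to 1.81), 29 at 9 dpp (0.504, 0.337 to 0.723), 17 after 7 days in culture (0.458, 0.267 to 0.733) and 16 at 14 dpp (0.285, 0.163 to 0.462). The 2-day culture stood above 9 dpp by 2.66-fold (1.62 to 4.42), and the 7-day pair, at 1.61-fold (0.764 to 3.40), was not apart beyond counting error. Sertoli-like cells, the nurse cells of the tubule, held 18 of the 43 UMIs after 2 days in culture and 0 at 9 dpp, a level at least 12.5-fold higher, while stromal or myoid-like cells held 19 UMIs in each of those libraries. For the 7-day pair, Sertoli-like cells held 4 UMIs against 2, and stromal or myoid-like cells 5 against 10, a level 2.81-fold lower in culture (0.876 to 10.5), so neither class differed beyond counting error and the direction in the latter was opposite to that of the whole library. Without cluster 17 the Sertoli-like share of the Lif UMIs was 37.2% in place of 41.9%. No cell had more than 2 Lif UMIs, and the 18 UMIs lay in 16 cells.

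**Figure D3:**
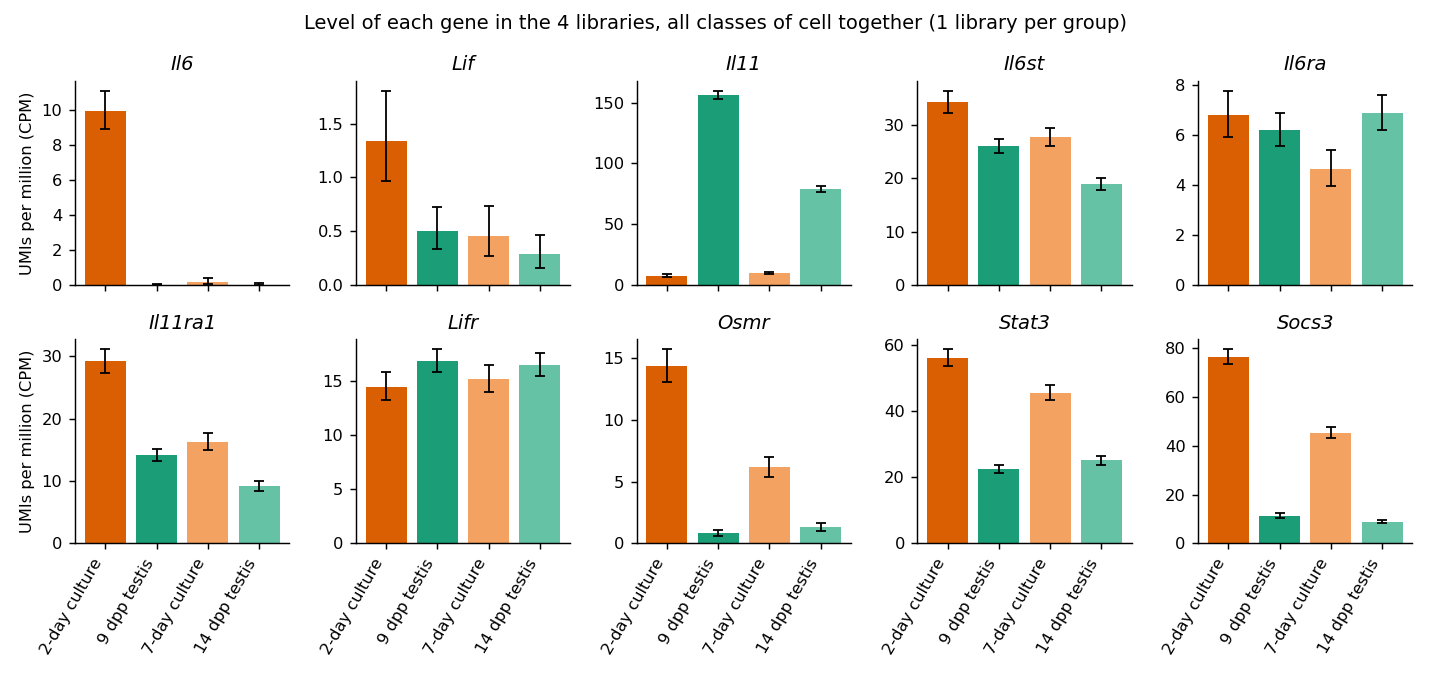
One panel per gene gives its level in CPM over all kept cells of each library, with bars from 0 and exact 95% Poisson intervals; each group has 1 library. Il6, Osmr, Stat3 and Socs3 are high after 2 days in culture, and Il11 is high at 9 and 14 dpp.

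Counted over the set, 5 of the 10 genes were at least 2-fold higher after 2 days in culture than at 9 dpp, on log2(CPM + 1), against 4.19% of the 16616 genes with at least 50 UMIs. These were Il6, Il11ra1, Osmr, Stat3 and Socs3, of which Il11ra1 sat at the edge of the 2-fold limit. One, Il11, was at least 2-fold lower, against 3.41%. In the 7-day pair 2 genes, Osmr and Socs3, were higher (background 3.6%) and Il11 was lower (2.67%). The median log2 ratio of the set was 0.82 and 0.38, where that of all genes was -0.12 and 0.00. With time in vivo, from 9 to 14 dpp, 0 genes of the set were higher (4.09%) and 0 were lower (1.97%), with Il11 just inside the limit at a log2 ratio of -0.98; these libraries are also those of the pairs. Because the genes were chosen with these contrasts known, nothing is read from the counts.

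Il6st (chr13:112464070-112510086), the chain that all these cytokines share, had UMIs in all 4 libraries in each of the 4 classes with at least 50 cells per library. Stromal or myoid-like cells had the highest level: 72.5 CPM after 2 days in culture (67.6 to 77.8), 104 at 9 dpp (97.6 to 111), 92.4 after 7 days in culture (85.5 to 99.7) and 100.2 at 14 dpp (91.7 to 109). Leydig-like cells, the androgen-making cells, came next among classes of at least 50 cells with 34.2 to 47.1 CPM, Sertoli-like cells had 11.8 to 21.5 and germ-like cells 6.18 to 8.40. In the stromal or myoid-like cells Il6st was 1.43-fold lower (1.30 to 1.57) after 2 days in culture than at 9 dpp, while over the whole library it was 1.32 times as high (1.22 to 1.43). The whole-library log2 ratio of 0.39 went to -0.09 when each cell was weighted equally, so the difference in direction depends on the weighting. The class made up 36.8% of the cells and 34.3% of the UMIs after 2 days in culture, against 29.7% and 16.7% at 9 dpp. Its shares of the UMIs were 19.4% after 7 days in culture and 9.09% at 14 dpp. The whole-library ratios given here for any gene are not corrected for these shares.

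Il6ra (chr3:89864059-89913196), the chain specific to IL-6, was lower in culture in germ-like cells and higher in culture in stromal or myoid-like cells. In germ-like cells it was 2.69 CPM after 2 days in culture (1.84 to 3.797), 8.40 at 9 dpp (7.39 to 9.49), 2.78 after 7 days in culture (2.11 to 3.61) and 6.15 at 14 dpp (5.33 to 7.05), so both cultures were low. In stromal or myoid-like cells the values were 12.8 (10.8 to 15.1), 3.01 (2.02 to 4.33), 8.91 (6.86 to 11.4) and 5.87 (3.96 to 8.38) in the same order. The 2-day culture was 3.12-fold lower (2.16 to 4.66) than 9 dpp in the germ-like cells and 4.25-fold higher (2.84 to 6.58) in the stromal or myoid-like cells. In the 7-day pair the germ-like cells were 2.21-fold lower (1.64 to 3.02), and the 1.52-fold difference in stromal or myoid-like cells (0.969 to 2.42) was not beyond counting error. Over the whole library Il6ra was 6.80 CPM after 2 days in culture and 6.20 at 9 dpp. Macrophage-like cells had the highest level in vivo, 46.6 CPM at 9 dpp and 85.5 at 14 dpp, from 13 and 28 UMIs in 28 and 46 cells. In the cultures their level was also the highest, but it rests on 3 UMIs in 10 cells at 2 days and 14 UMIs in 15 cells at 7 days.

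Il11ra1 (chr4:41699989-41769474), the chain for IL-11, was highest in stromal or myoid-like cells wherever a class had at least 50 cells: 64.5 CPM after 2 days in culture, 42.8 at 9 dpp, 50.4 after 7 days in culture and 37.6 at 14 dpp. Leydig-like cells followed with 25.6 to 42.8 CPM, and their intervals overlapped those of the stromal or myoid-like cells in each library but the 2-day culture. In the stromal or myoid-like cells the culture was 1.51-fold (1.33 to 1.71) and 1.34-fold (1.12 to 1.61) above the testis, against 2.07-fold (1.88 to 2.28) and 1.78-fold (1.58 to 2.01) over the whole libraries. In germ-like cells, which held the Il11 transcripts, it was 5.52 to 8.91 CPM. Its level is uncertain, since its transcript is 98.6% identical over 2578 bases to that of Gm13305, which had 7263 UMIs over the kept cells. Reads may be split between them or left out of the counts. Il11ra2 was at 0 in all 4 libraries. Its transcript is 98.1% identical to that of Il11ra1 over 421 bases, so the 0 does not show that it was not expressed.

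Lifr (chr15:7090614-7197489), which binds LIF, differed little over the whole library (14.5, 16.8, 15.2 and 16.5 CPM in the order 2-day culture, 9 dpp, 7-day culture and 14 dpp). Leydig-like cells had the highest level among classes of at least 50 cells, with 59.8, 46.1, 116 and 76.0 CPM from 28 to 115 UMIs. At 9 dpp its interval (33.9 to 61.3) overlapped that of the stromal or myoid-like cells (27.9 to 35.1). Estimated free RNA was 36.5% to 40.9% of the UMIs of Leydig-like cells, and its part in these levels was not tested. The Leydig-like log2 ratio of CPM + 1 was 0.37 for the 2-day pair and 0.60 for the 7-day pair. Over the alternatives, which include free RNA subtracted, it ran from 0.30 to 0.56 and from 0.40 to 0.87. In Sertoli-like cells Lifr was lower in culture, at 11.1 against 21.2 CPM for the 2-day pair (1.91-fold, 1.48 to 2.48) and 15.8 against 21.4 for the 7-day pair (1.35-fold, 1.07 to 1.71). Without cluster 17 the log2 ratio of CPM + 1 for the 2-day pair was -0.98 in place of -0.87. Endothelial-like cells, the vessel lining, had 28 Lifr UMIs in 20 cells at 9 dpp and 50 in 24 cells at 14 dpp, but 3 in 47 cells of the 2-day culture and 0 in 19 cells of the 7-day culture.

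**Figure D4:**
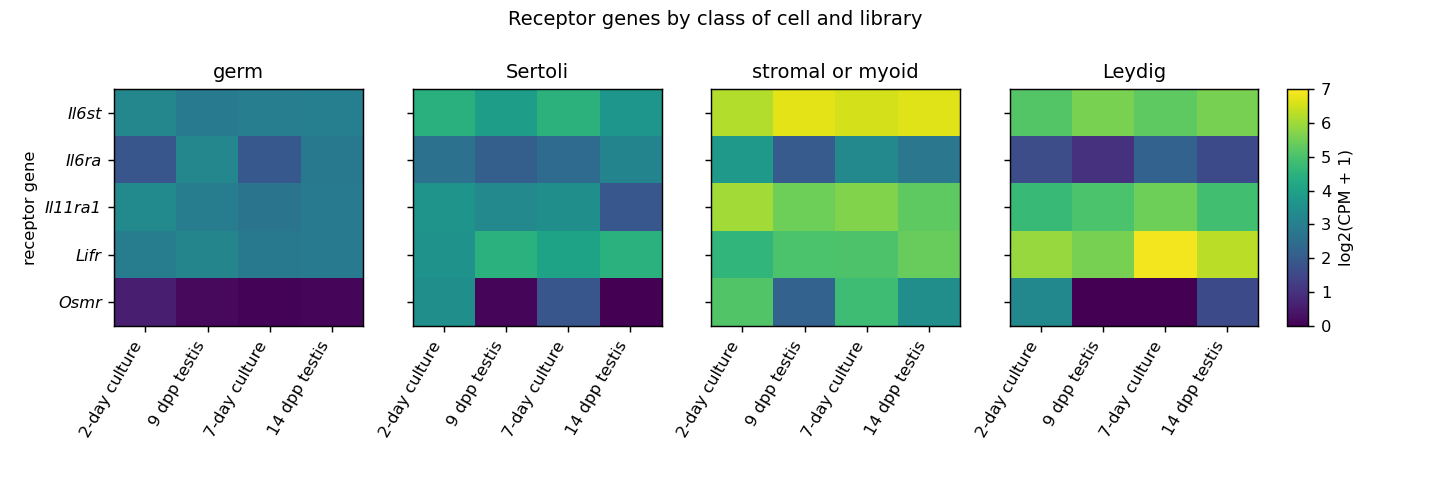
Colour gives log2(CPM + 1) of each receptor gene in the 4 classes with at least 50 cells per library, from 0 (dark) to 7 (yellow). Il6st is brightest in stromal or myoid-like cells, Lifr in Leydig-like cells, and Osmr is bright in the cultured stromal or myoid-like cells.

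Osmr (chr15:6813577-6874969), the oncostatin M receptor, was the receptor gene with the largest difference. It had 460 UMIs after 2 days in culture (14.3 CPM), 48 at 9 dpp (0.834), 229 after 7 days in culture (6.17) and 74 at 14 dpp (1.32), which is 17.2-fold (12.8 to 23.7) and 4.69-fold higher (3.59 to 6.18) in culture. In stromal or myoid-like cells the levels were 33.2, 3.64, 27.4 and 9.98 CPM, or 9.12-fold (6.44 to 13.3) and 2.75-fold (2.01 to 3.81). Sertoli-like cells had 72 UMIs after 2 days in culture, 1 at 9 dpp, 18 after 7 days in culture and 0 at 14 dpp. The first pair gives a ratio of 149.6 with an interval from 26.0 to 5989, and the second is at least 10.4-fold. Without cluster 17 the log2 ratio of CPM + 1 for the 2-day pair was 3.40 in place of 3.40. Osm, which encodes the ligand of this receptor, had 8 UMIs after 2 days in culture, 17 at 9 dpp, 17 after 7 days in culture and 7 at 14 dpp.

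UMIs of Il6st and of another receptor chain were counted in the same cells. Of 2531 stromal or myoid-like cells after 2 days in culture, 619 had an Il6st UMI, and of these 150 also had Il11ra1, 101 had Osmr, 73 had Lifr and 36 had Il6ra. At 9 dpp 667 of 1529 cells had Il6st, of which 153 had Il11ra1, 126 Lifr, 20 Osmr and 20 Il6ra. A cell can express a gene and give no UMI of it, and free RNA, estimated at 7.40% of the UMIs of this class after 2 days in culture and 6.36% at 9 dpp, can add UMIs to cells that do not. The overlap is therefore given as counts of UMIs only.

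Stat3 (chr11:100885098-100939540) and Socs3 (chr11:117966079-117970047) were both higher in culture. Stat3 had 56.1 CPM after 2 days in culture, 22.4 at 9 dpp, 45.5 after 7 days in culture and 25.2 at 14 dpp, at ratios of 2.50 (2.33 to 2.69) and 1.81 (1.69 to 1.94). Socs3 had 76.6, 11.4, 45.4 and 8.97 CPM in the same order, at ratios of 6.70 (6.14 to 7.31) and 5.07 (4.58 to 5.61). For both genes, the 2 cultures lay above the 2 testis libraries with no overlap of intervals.

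By class, the ratio of Socs3 levels was largest in Sertoli-like cells. There it had 51.2 CPM after 2 days in culture (46.1 to 56.8), 1.37 at 9 dpp (0.837 to 2.12), 67.7 after 7 days in culture (61.6 to 74.2) and 1.80 at 14 dpp (1.12 to 2.76), which is 37.4-fold (23.9 to 62.0) and 37.5-fold higher (24.3 to 61.2). Free RNA was estimated at 12.8% of the UMIs of these cells at 9 dpp and 20.8% at 14 dpp, and those shares of the whole-library Socs3 levels are no lower than the Sertoli-like levels in the testes. How much of the testis values is free RNA was not tested, so the folds are given only as ratios of UMIs. The log2 ratio of CPM + 1 was 4.46 and 4.61, with free RNA subtracted 5.60 and 6.15, and over the alternatives it ran from 2.43 to 5.60 for the 2-day pair and from 2.72 to 6.15 for the 7-day pair. Without cluster 17 it was 4.49 for the 2-day pair. Stromal or myoid-like cells had more Socs3 in every library, 169 CPM against 53.5 and 149 against 62.8, a ratio of 3.15 (2.86 to 3.48) and 2.37 (2.09 to 2.69). Leydig-like cells had 87.6 against 26.5 CPM and 55.3 against 23.1. In germ-like cells Socs3 was low, at 6.81 against 2.38 CPM (2.86-fold, 2.06 to 3.99) and 2.74 against 2.00 CPM (1.37-fold, 0.941 to 1.98), the second not apart beyond counting error. Free RNA, estimated from markers of other classes, was 3.08% of the UMIs in the germ-like cells of the 2-day culture. With it subtracted, the germ-like log2 ratio of Socs3 was 0.85 for the 2-day pair in place of 1.21, and 0.09 for the 7-day pair in place of 0.32.

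**Figure D5:**
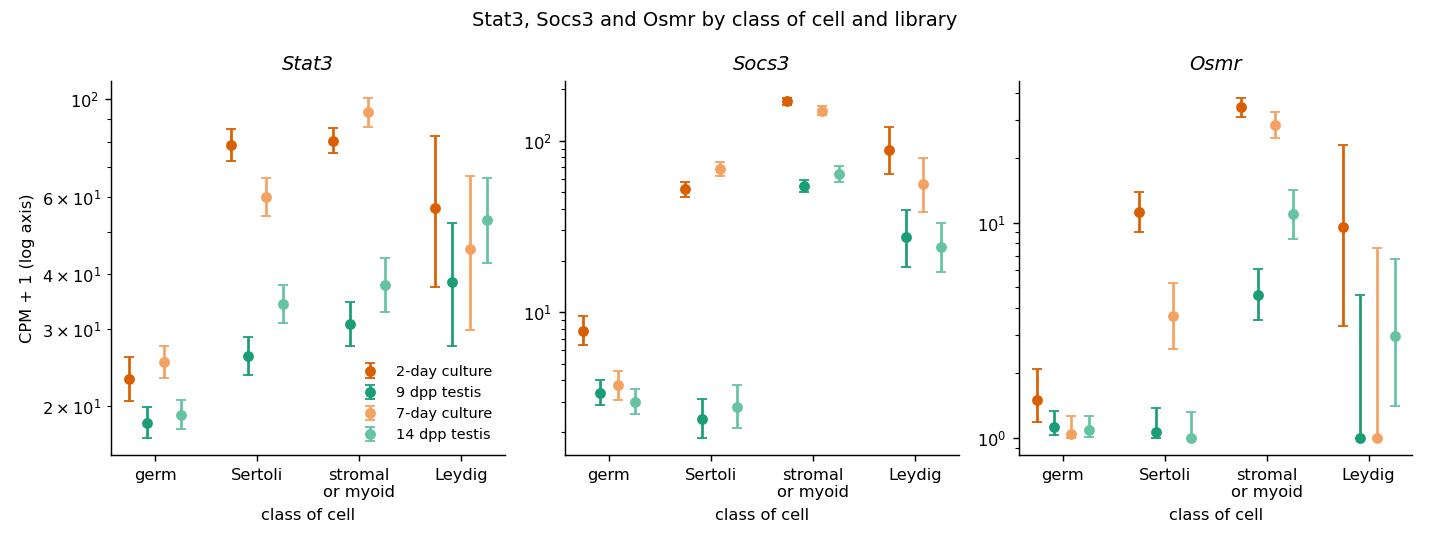
Points give CPM + 1 on a log axis for Stat3, Socs3 and Osmr in the 4 classes, coloured by library, with exact 95% Poisson intervals. In Sertoli-like cells the cultures lie far above the testes for Socs3, at 51.2 and 67.7 against 1.37 and 1.80 CPM.

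As shares of cells thinned to 2000 UMIs, Socs3 was seen in 9.38% of Sertoli-like cells after 2 days in culture (7.39 to 11.7) and 10.9% after 7 days in culture (8.36 to 13.9), but in 1 of 850 at 9 dpp and 0 of 872 at 14 dpp, which allows a share of up to 0.344% by the limit of 3 counts. For stromal or myoid-like cells the shares were 25.8% and 23.0% in the cultures and 9.72% and 9.66% in the testes. Germ-like cells gave 1.03%, 0.484%, 0.289% and 0.367% in the order 2-day culture, 9 dpp, 7-day culture and 14 dpp. The unthinned shares in Sertoli-like cells were 19.7%, 28.4%, 2.20% and 1.79% for the 2-day culture, 7-day culture, 9 dpp and 14 dpp.

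Stat3 differed by less than Socs3 in Sertoli-like cells, while in stromal or myoid-like cells the intervals of the Stat3 and Socs3 ratios overlapped in both pairs. Sertoli-like cells had 77.9 CPM after 2 days in culture, 25.0 at 9 dpp, 59.0 after 7 days in culture and 33.2 at 14 dpp, at ratios of 3.11 (2.72 to 3.56) and 1.78 (1.54 to 2.05). Without cluster 17 the log2 ratio for the 2-day pair was 1.64 in place of 1.60. Stromal or myoid-like cells had 79.5, 29.8, 92.4 and 36.8 CPM, a ratio of 2.67 (2.33 to 3.06) and 2.51 (2.13 to 2.97). In Leydig-like cells the ratios of 1.49 (0.869 to 2.52) and 0.854 (0.522 to 1.35) were not apart from 1 beyond counting error. Germ-like cells had 22.1, 17.4, 24.2 and 18.1 CPM, and within them Stat3 at 9 dpp was highest in undifferentiated spermatogonia, at 42.1 CPM (34.2 to 51.3) against 12.6 in differentiating spermatogonia (11.1 to 14.3).

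Within stromal or myoid-like cells, 5 of the 10 genes were at least 2-fold higher after 2 days in culture (Il6, Il6ra, Osmr, Stat3 and Socs3; 5.8% of all genes tested there) and none was lower (7.15%). In the 7-day pair Osmr, Stat3 and Socs3 were higher (4.84%) and none was lower (4.68%). Of the 8 genes of the set measured in Sertoli-like cells, Osmr, Stat3 and Socs3 were higher (6.59%) and Il11 lower (6.16%) for the 2-day pair, and Il11ra1, Osmr and Socs3 higher (9.87%) and Il11 lower (7.78%) for the 7-day pair. The Sertoli-like Il11 difference went to a log2 ratio of 0.22 and 0.32 once estimated free RNA was subtracted, from -2.71 and -1.96. Of the 7 genes measured in germ-like cells, Socs3 was higher (1.23%) and Il11 and Il6ra lower (3.15%) for the 2-day pair, and for the 7-day pair none was higher (0.771%) and Il11 was lower (2.32%). The germ-like Socs3 call was lost with free RNA subtracted, at a log2 ratio of 0.85.

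Other genes of the pathway were taken from lists of ligands, receptors, kinases, negative regulators and 22 genes that STAT3 is known to switch on. The values here are over whole libraries unless a class is named. Of 4 other ligands with at least 50 UMIs, only Clcf1, a cytokine that acts through the CNTF receptor, was at least 2-fold higher for the 2-day pair (6.27 against 1.08 CPM; 4.19% of all genes) and none for the 7-day pair (3.6%). Jak3, a Janus kinase, was at least 2-fold higher for the 2-day pair, at 3.74 against 0.990 CPM, and had 1.72 against 0.783 CPM for the 7-day pair. Of 9 negative regulators, Socs2, a feedback inhibitor of growth hormone signalling, was lower for the 2-day pair (28.7 against 87.0 CPM; 3.41% of all genes) and none passed for the 7-day pair (2.67%). Within stromal or myoid-like cells, 2 of 8 were lower in each pair, against 7.15% and 4.68% of all genes there: Socs2, at 7.55 against 39.9 CPM and 9.19 against 82.4 CPM, and Cish, an inhibitor of the same family, at 3.82 against 11.6 CPM and 2.09 against 16.2 CPM. Neither of the 2 other receptors measured, Cntfr and Il27ra, passed in either pair.

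Of 21 STAT3 target genes with at least 50 UMIs, 15 were at least 2-fold higher (4.19% of all genes) and 1, Ccnd1, was lower (3.41%) for the 2-day pair over the whole libraries, with a median log2 ratio of 1.92 against -0.12 for all genes. In the 7-day pair 12 were higher (3.6%) and none lower (2.67%), with a median of 1.60 against 0.00. The list was drawn up with earlier results of these libraries known, and many of its genes are also targets of NF-kB or C/EBP factors. The 6 with the largest log2 ratio in the pair where it was smaller were Saa3, Hp, Serpina3n, Steap4, Cebpb and Lcn2, of which Saa3, Hp, Serpina3n and Lcn2 encode secreted acute phase proteins. Cebpb, a transcription factor, had 142 CPM after 2 days in culture, 24.2 at 9 dpp, 61.9 after 7 days in culture and 6.14 at 14 dpp. Steap4, a metalloreductase, had 106, 11.3, 40.6 and 4.63 CPM in the same order. The other 4 had at most 1.67 CPM in the testes: Serpina3n had 8221 UMIs after 2 days in culture and 1 at 9 dpp, and Hp had 14578 and 7.

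By class, 14 of 19 measured STAT3 targets were at least 2-fold higher for the 2-day pair in Sertoli-like cells (6.59% of all genes) and 14 of 19 in stromal or myoid-like cells (5.8%), with medians of 3.36 and 2.83 on the log2 scale. One, Bcl2l1, a gene against cell death, was lower in the stromal or myoid-like cells (7.15%). In germ-like cells 9 of 18 were higher for the 2-day pair (1.23%), with a median of 0.87, and 3 of 18 for the 7-day pair (0.771%), with a median of 0.39. Saa3, at 28808 CPM in the stromal or myoid-like cells and 10391 in the whole 2-day library, had 276 CPM in the germ-like cells of that library, where the estimated share of free RNA was 3.08%. With free RNA subtracted, an alternative chosen after seeing the data, 1 of the 18 targets was still at least 2-fold higher in germ-like cells for the 2-day pair, Hp, and 0 for the 7-day pair, so the germ-like counts are ones of UMIs that depend on free RNA. In Sertoli-like cells, where free RNA was estimated at 12.6% of the UMIs of the 2-day culture, 12 of the 14 were still higher, without Saa3 and Hp, and the median went from 3.36 to 1.51. In the stromal or myoid-like cells all 14 stayed higher and Ccnd1 joined them, with a median of 2.89. For the 7-day pair, 12 were higher in Sertoli-like cells (9.87%) and 9 after the subtraction, and 13 in stromal or myoid-like cells (4.84%), the same 13 after it. Between the cultures, 9 of the 21 targets were at least 2-fold lower at 7 days than at 2 days (2.37% of all genes) and none was higher (4.51%), and of the 10 genes of the set Il6 and Osmr were lower.

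Genes with a pattern most like that of a member were named by Pearson correlation over 16 sums of a class and library, or of a germ cell stage and library for Il11. These sums share libraries and classes, so the correlations only describe them. For Il6 the 5 nearest were Ptprn, Madcam1, Csf3, Slc36a2 and Tnfsf13b (r from 0.88 to 0.93), and Csf3, the ligand G-CSF, had 367 of its UMIs in the stromal or myoid-like cells of the 2-day culture. For Socs3 they were Cebpd, Casp12, Tspan4, Tap2 and Fas (0.96 to 0.97). Cebpd, a transcription factor, had 251 CPM in Sertoli-like cells of the 2-day culture against 2.60 at 9 dpp, and 228 against 4.04 for the 7-day pair. For Lif they were Plscr2, Gpc1, Serinc2, Poc1b and Fam129b (0.80 to 0.82). Lif had at most 19 UMIs in any of the sums, so its correlations rest on few counts. For Il11 they were AC160336.1, Gm10457, Bc1, Exosc2 and Gm13075 (0.94 to 0.99). Exosc2, a subunit of the RNA exosome, had 174 CPM in differentiating spermatogonia at 9 dpp, 126 at 14 dpp, 59.1 after 2 days in culture and 52.0 after 7 days in culture.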

How the data were processed

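Single-cell RNA libraries (10x Chromium 3′) of 4 mouse testis groups were measured, 1 library each. The authors deposited raw UMI counts per gene and cell as matrices, made with Cell Ranger 3.0.2 on mm10 per the submitters' processing notes; intronic reads and strand settings are not given in the sources used here. From these counts, cells passed with at least 500 genes detected and no more than 20% of UMIs from mitochondria, and Scrublet's doublet calls (1.89% to 3.55% of each library) were left out. A cell needed at least 3 detected markers of a class to be put in it. The share of that class's markers detected also had to be at least 1.25 times that of the next class. This scoring rule was set after looking at marker UMIs only. UMIs were summed per class and library, scaled to CPM without further normalization, and compared as log2(CPM + 1) for genes with at least 50 UMIs. Intervals were exact Poisson for levels, exact conditional for ratios and Clopper-Pearson for shares, with 3 counts of the total as the limit beside a share of 0. A group at 0 was set to 3 counts per library or class, which gives a lower bound for the fold. Shares of cells were taken after thinning each cell to 2000 UMIs. Sequences came from RefSeq's table on GRCm38.p6 and gene positions from GENCODE's annotation of GRCm38. The 10 genes, the markers and all gene lists were chosen with earlier results of these data known. Named in the text were the 10 genes, up to 6 genes per pathway list that differed at least 2-fold in the same direction in both pairs, and the 5 genes with the highest Pearson correlation to Il6, Lif, Socs3 or Il11; Clcf1, Jak3, Socs2, Cish, Ccnd1, Bcl2l1, Cntfr, Il27ra, Il11ra2, Gm13305 and Osm were named outside this rule, after their values were seen. The ratio and class steps were tested on simulated data. Python 3.11.15, scanpy 1.11.5, leidenalg 0.10.2, scipy 1.17.1, BLAST 2.17.0 and, for TMM factors as an alternative scaling only, edgeR 4.0.16 were used. With 1 library per group no model was fitted across genes. Alternatives changed the cell filter, doublets, the value added to CPM, the scaling, the marker rule, clustering in place of markers, free RNA and thinning. Some items of the pathway lists are not reported here.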

Additional observations from a re-analysis of the deposited data

Results flagged for a closer look

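Cells with no class in the 2-day culture, which enter no comparison between classes, held 69 Il6 UMIs, while the 9 dpp library had 0 in such cells. Receptor genes differed between culture and testis in opposite directions in different classes, each with an interval that excluded 1, and the difference between classes was not tested. In the 2-day pair the log2 ratio of CPM + 1 for Il6ra was -1.35 in germ-like cells and 1.78 in the stromal or myoid-like class. For Il6st in that pair it was 0.39 in germ-like cells, 0.54 in Sertoli-like cells and -0.51 in the stromal or myoid-like class. In the 7-day pair it was -0.41 for Lifr in Sertoli-like cells, -0.31 in the stromal or myoid-like class and 0.60 in Leydig-like cells, whose estimated share of free RNA was 40.9% in the 7-day culture and 37.3% at 14 dpp.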

How the results depend on the processing

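The alternatives gave 1150 values for 123 results. Of the values for counts of the 10 genes and shares of ligand UMIs, 97 kept to the main value and 17 moved. A count near the main value, such as 6 against 5, was taken as kept. Of the values for single genes, 920 lay within a counting interval of the main value, and 114 lay outside it, beside the last 2 named below. For a log2 ratio this interval joined the opposite ends of the intervals of both levels. It is thus not the ratio interval given further up. A log2 ratio had the opposite sign in 16 values for 11 results. In 14 of these the main value was under 1 in size, among them Il6st in the whole library for the 2-day pair (-0.09 with cells weighted equally) and Il11 in stromal or myoid-like cells (1.64 and 0.83 with free RNA subtracted, for the 2-day and 7-day pairs). The other 2, with a main value over 1 in size, were Il11 in Sertoli-like cells, where subtracting estimated free RNA gave a log2 ratio of 0.22 for the 2-day pair and 0.32 for the 7-day pair. The whole-library count of genes at least 2-fold higher was 3 for the 2-day pair and 1 for the 7-day pair with 10 CPM added, and likewise 3 and 1 at a fold cutoff of 4. At that cutoff 2 genes were higher in stromal or myoid-like cells for the 2-day pair and 0 for the 7-day pair. For the 7-day pair the number lower in these cells was 1 when doublet calls stayed in, with the laxer marker rule and with the stricter one, and 2 with 0.1 CPM added. The germ-like share of Il11 UMIs at 9 dpp was 90.7% with doublet calls kept, 96.96% with the laxer marker rule, 82.3% with the stricter one and 96.97% with clusters. At 14 dpp it was 93.8%, 83.7% and 96.3% with doublet calls kept, the stricter rule and clusters. The low-depth cluster was left out, and free RNA subtracted for the STAT3 targets, as alternatives chosen after seeing the data. The causes of these shifts were not tested. No paired analysis was possible because each group has 1 library, and none could be left out. Counts of a few UMIs, as for Lif and for Il6 outside the 2-day culture, limit what could be seen.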
